A study of Homo sapiens with 2 samples.

Results

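Serpins are a large family of protease inhibitors that share a single fold, and 35 human serpin genes were looked at here in liver cancer cells with and without the protease PRSS35. The members are the loci whose gene name, or whose name within a joined locus, is SERPIN followed by a clade letter from A to I and a number. This rule found 35 of the 24991 gene names present in both libraries. Of these 35, 16 averaged 1 FPKM or more across the pair of libraries, out of 10133 such names in all, and are called expressed below. FPKM counts fragments relative to the length of the transcript and to all mapped fragments, a level per length, so it can be compared between genes.

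Most serpins inhibit serine proteases by a mechanism that destroys both partners. A flexible loop, the reactive centre loop, is offered as bait; when the protease cuts it, the loop snaps into the body of the serpin and the protease is dragged along and crushed in a covalent complex. Other members have lost this activity and carry hormones, assist the folding of collagen or act as signals, and clade B members lack a classical signal peptide and mostly work inside cells. The liver is the main source of the plasma serpins, among them α1-antitrypsin, antithrombin and C1 inhibitor.

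PLC is a human liver cancer cell line. Its cells were infected with lentivirus made from the pCDH vector, either empty (EV, genotype WT in the labels) or carrying human PRSS35 (the PRSS35 cells), and both were selected with puromycin as stable cells, with no other treatment given in the labels. Whether each line was a pool or a clone is not stated, and the growth notes cover medium with serum and serum-free medium without saying which was used before RNA extraction. Total RNA was sequenced once per condition, so there is 1 library each, no test, no p-value and no SD, and the spread between cultures was not measured.

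PRSS35 itself stood at 0.643 FPKM in the EV library and 1836 FPKM in the PRSS35 library, as the labels say. Of 10 hepatocyte markers, 9 were expressed, with HNF4A at 41.2 and 47.7 FPKM, but albumin (ALB) reached 4.05 and 5.21 FPKM only, and the fibrinogen chain gene FGB was below the expression limit at 0.598 and 0.540 FPKM. Leukocyte markers PTPRC and CD3E were listed at 0 in both libraries and CD14 at 0 and 0.234 FPKM, while lysozyme (LYZ), which is not limited to leukocytes, was at 94.0 and 103.7 FPKM. Endothelial markers summed to 0.0373 and 0.0307 FPKM, squamous epithelium markers to 0.0314 and 0.0304 FPKM, and the stromal markers to 1.75 and 2.03 FPKM.

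A feature that bears on which protease a serpin traps is the bond cut in its reactive centre loop, between the residues called P1 and P1′. The coding sequence around that bond is shown here for 5 expressed serpins, to set the bait bonds of inhibitors with different targets side by side. Each stretch is 30 bases of the coding strand of GRCh37, within 1 exon of the GENCODE model, with the P1 and P1′ codons in capitals, and residues are counted from the initiator methionine.
SERPIND1, heparin cofactor II, leucine 463 before serine 464, exon 5, plus strand, chr22:21141229-21141258: gggttcatgccgCTGTCCacccaagtccgc
SERPING1, C1 inhibitor, arginine 466 before threonine 467, exon 8, plus strand, chr11:57381935-57381964: atctctgtggccCGCACCctgctggtcttt
SERPINE2, protease nexin, arginine 364 before serine 365, exon 8, minus strand, chr2:224842310-224842339: attctcattgcaAGATCAtcgcctccctgg
SERPINI1, neuroserpin, arginine 362 before methionine 363, exon 8, plus strand, chr3:167542266-167542295: attgcaattagtAGGATGgctgtgctgtat
SERPINB6, an intracellular inhibitor, arginine 341 before cysteine 342, exon 7, minus strand, chr6:2948625-2948654: atcatgatgatgCGGTGTgccagattcgtc
Of these serpins, 4 present an arginine, the residue after which thrombin-like proteases, plasminogen activators and the complement proteases cut. SERPIND1 presents a leucine, so this residue alone does not tell the targets of these 5 apart. They were picked by name, SERPINA1 not among them, so the 4 arginines are no share of the expressed serpins.

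No expressed serpin differed by 2-fold between the libraries in either direction. On the log2 scale with a pseudocount of 1 FPKM, 1.89% of all expressed genes were higher and 1.84% lower in PRSS35 at that size, against 0 of 16 serpins each way. At 1.5-fold, SERPINA1 was higher and 0 serpins were lower, where 4.32% of all expressed genes were higher and 3.55% lower. All 16 log2 changes of the serpins were above 0, as were those of 60.7% of all expressed genes. Their median was 0.25, beside 0.06 over all expressed genes, and they ran from 0.01 to 0.75. Of the 16, 13 lay above the median gene, as did 50.0% of all expressed genes. The 16 include SERPINI1, which passed the limit of 1 FPKM on the mean only through its level in PRSS35. They also include the locus that joins SERPINF2 to WDR81.

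The authors' Cufflinks run gave each FPKM a lower and an upper bound, given here in brackets after the value, which cover error within a library only. The bounds in PRSS35 lay wholly above those in EV for 8 of the 16 serpins, beside 24.7% of all expressed genes, and wholly below for 0 of 16, beside 14.3%. Among these 8 were SERPINA1, SERPINA6, SERPINB6, SERPIND1, SERPINE2, SERPINF1 and SERPINI1. SERPINB6, SERPIND1 and SERPINF1 were loci assembled by Cufflinks in EV but annotated loci in PRSS35, so their bounds compare unlike locus models. The end of the SERPINF1 locus also differed, at 1682293 in EV and 1680859 in PRSS35. What this adds to their changes was not tested. When the PRSS35 values were divided by the median change of all expressed genes, 6 serpins had separate bounds, without SERPINF1 and SERPINI1, and the background became 18.0% higher and 19.1% lower. Upper quartile scaling gave the same 6, with 17.8% of genes higher and 19.4% lower. SERPINI1 passed the limit on the mean only through its level in PRSS35, and among the 15 serpins with at least 1 FPKM in each library 7 had bounds higher in PRSS35, beside 24.1% of such genes higher and 13.6% lower. By level, bounds were apart for 4 of 9 serpins between 1 and 10 FPKM (19.5% of all genes higher, 8.07% lower), 3 of 5 between 10 and 100 FPKM (31.6% and 16.3%) and 1 of 2 above that (24.6% and 33.9%), each time with the serpins higher in PRSS35.

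**Figure D1:**
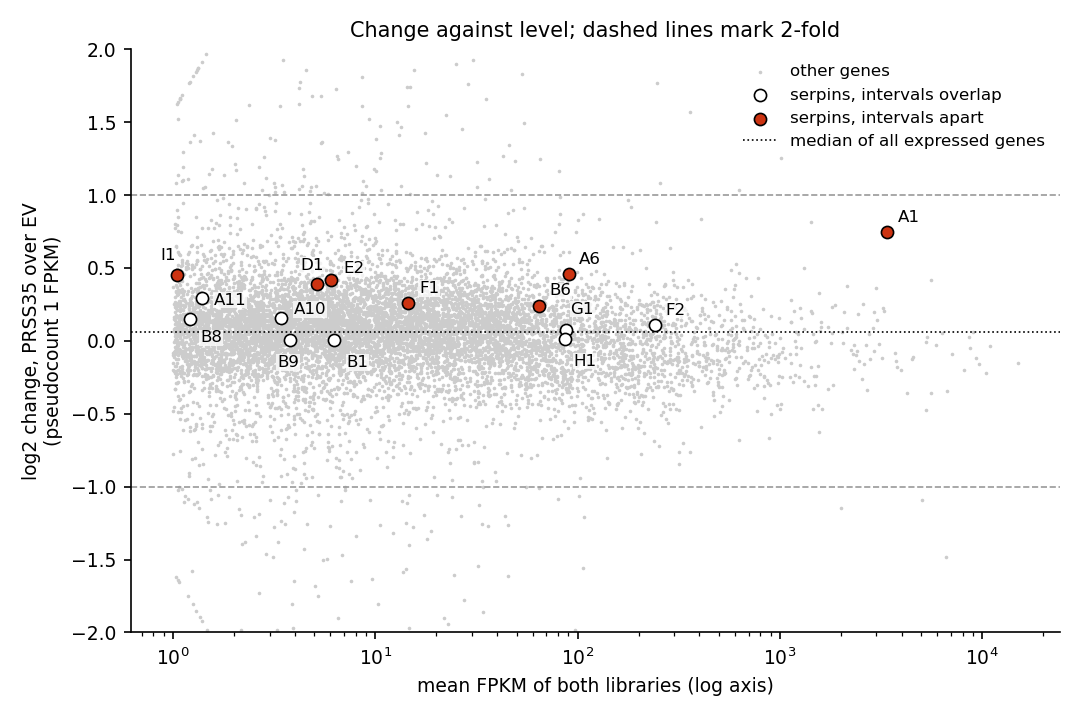
Log2 change (PRSS35 over EV, pseudocount 1 FPKM) against mean FPKM on a log axis for expressed genes (grey) and 15 serpins, filled where the bounds are apart and named without the prefix SERPIN. No serpin drawn reaches the dashed lines at 2-fold, SERPINA1 is the highest at 0.75, and 146 of the 10133 genes lie outside the plotted range.

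The plasma inhibitors made up 9 members, of which 5 were expressed. Carriers found in blood, such as SERPINA6, are counted in a later group. Of these, 2 were higher with separate bounds and 0 lower, beside 24.7% and 14.3% of all expressed genes. SERPINA1, which guards the lung against neutrophil elastase, had by far the highest level of the family. It measured 2528 FPKM [2423 to 2633] in EV and 4239 FPKM [4113 to 4365] in PRSS35, a ratio of 1.68 and a log2 change of 0.75. The bounds were 1481 FPKM apart, and the rank of the gene among all names of its library went from 48 to 22. Its level was 29.4 times that of the next serpin with a locus of its own in EV and 40.6 times in PRSS35. The locus, chr14:94843084-94857029 in hg19, had the same ends in both libraries.

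SERPINA1 is also 1 of the 10 hepatocyte markers. Bounds in PRSS35 were higher for 7 of the 9 expressed markers, SERPINA1 included, beside 24.7% of all expressed genes. Bounds were lower for 1, the apolipoprotein gene APOA1 (576.2 and 493.6 FPKM), beside 14.3%. The marker TTR, at 1.56 and 1.61 FPKM, had overlapping bounds. The largest changes after SERPINA1 were those of transferrin (TF), at 224.2 and 348.5 FPKM, and fetuin-A (AHSG), at 16.7 and 25.5 FPKM. Those of HNF4A and APOB were smaller, with log2 changes of 0.21 and 0.19. The oncofetal markers AFP, at 18.9 and 17.7 FPKM, and GPC3, at 11.2 and 12.4 FPKM, had overlapping bounds. Their part in the level of SERPINA1 was not tested.

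SERPIND1, heparin cofactor II, inhibits thrombin when bound to glycosaminoglycans. It was at 4.34 FPKM [3.66 to 5.02] in EV and 5.99 FPKM [5.36 to 6.63] in PRSS35, a log2 change of 0.39 with separate bounds. SERPING1, C1 inhibitor, restrains the first complement proteases and plasma kallikrein. It was at 85.7 FPKM [82.1 to 89.3] and 90.1 FPKM [86.3 to 94.0], and the bounds overlapped. SERPINA10, the protein Z-dependent inhibitor of activated factor X, was at 3.19 FPKM [2.71 to 3.68] and 3.67 FPKM [3.15 to 4.18], also overlapping. SERPINF2, α2-antiplasmin, was reported only within a locus joined to its neighbour WDR81 (chr17:1619817-1658559), so its own level cannot be read from these files. That locus was at 233.2 FPKM [224.1 to 242.2] and 251.4 FPKM [241.4 to 261.4], with overlapping bounds.

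The other plasma inhibitors were near the floor in both libraries. Antithrombin, SERPINC1, a main brake on clotting in blood and a typical hepatocyte product, was at 0.120 and 0.168 FPKM. Its bounds correspond to 5 whole fragments in EV and 7 in PRSS35, and 1 fragment was worth 0.0240 FPKM in both. SERPINA3, α1-antichymotrypsin, was at 0.290 and 0.242 FPKM. SERPINA5, the protein C inhibitor, was at 0.309 and 0.262 FPKM, or 20 and 17 whole fragments of 0.0154 FPKM each, and kallistatin, SERPINA4, was listed at 0 in EV and 0.0448 FPKM in PRSS35. The bounds overlapped for all 4, so no direction was read from these differences. For SERPINA4 both bounds in EV were 0.

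Among inhibitors of tissue proteases, SERPINE2 and SERPINI1 were expressed at low levels, and both were higher with separate bounds. The share of all expressed genes with separate bounds was 24.7% higher and 14.3% lower. SERPINE2, a cell surface inhibitor of thrombin and urokinase, was at 5.01 FPKM [4.40 to 5.62] in EV and 7.04 FPKM [6.30 to 7.78] in PRSS35. Neuroserpin, SERPINI1, acts on tissue plasminogen activator in the nervous system. It was at 0.726 FPKM [0.459 to 0.994] and 1.36 FPKM [0.995 to 1.73], and its bounds were separated by only 0.00166 FPKM. The log2 changes were 0.42 for SERPINE2 and 0.45 for SERPINI1 with a pseudocount of 1 FPKM, and 0.48 and 0.82 with one of 0.1 FPKM. As plain ratios of FPKM they were 1.41 and 1.87. SERPINI1, below 1 FPKM in EV, counts as expressed only through PRSS35.

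Carriers and other serpins without inhibitory activity had 5 members, 3 of them expressed. Of these, 2 were higher with separate bounds and 0 lower, where 24.7% and 14.3% of all expressed genes were. SERPINA6, corticosteroid-binding globulin, carries cortisol in blood. It was at 75.9 FPKM [71.7 to 80.2] in EV and 104.5 FPKM [101.2 to 107.8] in PRSS35, a log2 change of 0.46. From the width of the bounds, 1288 fragments are implied for SERPINA6 in EV and 3980 in PRSS35, so that width did not scale with the level. SERPINF1, pigment epithelium-derived factor, restrains the growth of blood vessels. It was at 13.2 FPKM [11.96 to 14.4] and 16.0 FPKM [14.7 to 17.2], a log2 change of 0.26, and its bounds were 0.256 FPKM apart. SERPINH1, the collagen chaperone HSP47 of the endoplasmic reticulum, was at 86.0 FPKM [82.5 to 89.5] and 86.9 FPKM [82.6 to 91.2], with overlapping bounds. The remaining members, the thyroxine carrier SERPINA7 and SERPINB5 (maspin), were listed at 0 in both libraries.

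Clade B inhibitors, which protect cells from proteases that leak within them, had 12 members besides SERPINB5. Of these, 4 were expressed, 1 of them was higher with separate bounds, and 8 were listed at 0 in both libraries. That 1 of 4 is near the background, as 24.7% of all expressed genes had higher bounds and 14.3% lower. SERPINB6 was at 58.9 FPKM [55.7 to 62.0] in EV and 69.7 FPKM [66.2 to 73.3] in PRSS35, a log2 change of 0.24. SERPINB1, an inhibitor of neutrophil proteases, was at 6.24 FPKM [5.60 to 6.87] and 6.27 FPKM [5.62 to 6.92]. SERPINB9, which inhibits granzyme B, was at 3.75 FPKM [3.37 to 4.14] and 3.78 FPKM [1.65 to 5.91]. The bounds of SERPINB9 were far wider in PRSS35 than in EV, at nearly the same FPKM. SERPINB8, which inhibits furin in vitro, was at 1.09 FPKM [0.773 to 1.41] and 1.32 FPKM [0.930 to 1.71], with overlapping bounds. Centring on the median change put SERPINB1, SERPINB9 and SERPINH1 slightly below 0, at -0.06, -0.06 and -0.05, as did upper quartile scaling, so their direction depends on the scaling.

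In the remaining group of 6, SERPINA11, a secreted member of little-known function, was the only expressed gene, at 1.14 FPKM [0.793 to 1.496] in EV and 1.62 FPKM [1.20 to 2.05] in PRSS35, with overlapping bounds. SERPINA2, a close relative of SERPINA1 that lies 10.0 kb from it, was listed at 0 and 0.195 FPKM, and how fragments shared by such copies were assigned is not stated. SERPINA9, SERPINA12, SERPINE3 and SERPINI2 were listed at 0 in both libraries.

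Sorted by where the proteins go, the expressed serpins fell into 11 that are secreted and 5 that stay in the cell (clade B and SERPINH1). Bounds were higher in PRSS35 for 7 of the 11 secreted serpins, with a median log2 change of 0.39, and for 1 of the 5 retained serpins, with a median of 0.01. Over all expressed genes 24.7% had higher bounds and 14.3% lower, with a median of 0.06, so that 1 of 5 is near the background. The 7 include SERPINI1, which counts as expressed only through its level in PRSS35. This split was made after the values were seen and the difference was not tested.

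Serpins held 0.363% of the summed FPKM of all named loci in EV and 0.588% in PRSS35, a ratio of 1.62. SERPINA1 alone went from 0.295% to 0.510%, a ratio of 1.73, and all other serpins together from 0.0678% to 0.0785%, a ratio of 1.16. SERPINA1 thus made up 81.3% of the serpin FPKM in EV and 86.7% in PRSS35. The sum over the family was 3108 and 4892 FPKM. These sums include the whole joined locus of SERPINF2 and WDR81, and without it SERPINA1 made up 87.9% and 91.3%. Over all expressed serpins without SERPINA1 the median log2 change was 0.24.

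Many serpin genes lie in clusters that arose by duplication, and the clusters differed in how much of them was transcribed. The chromosome 14 cluster (chr14:94749650-95090390) holds 10 clade A genes in 340.7 kb, of which 4 were expressed. Its most abundant member, SERPINA1, sits 51.8 kb from SERPINA11 and 53.4 kb from SERPINA6, while the genes beyond SERPINA11, from SERPINA9 to SERPINA3, stayed at or below 0.309 FPKM in both libraries. The chromosome 18 cluster (chr18:61144144-61656608) holds 10 clade B genes in 512.5 kb, and the last of them, SERPINB8, was its only expressed member. The other 9 were listed at 0 in both libraries, SERPINB10 at a distance of 34.7 kb included. All 3 clade B genes of the chromosome 6 cluster, which spans 139.8 kb, were expressed. On chromosome 17, SERPINF2 and SERPINF1 are 6.70 kb apart.

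**Figure D2:**
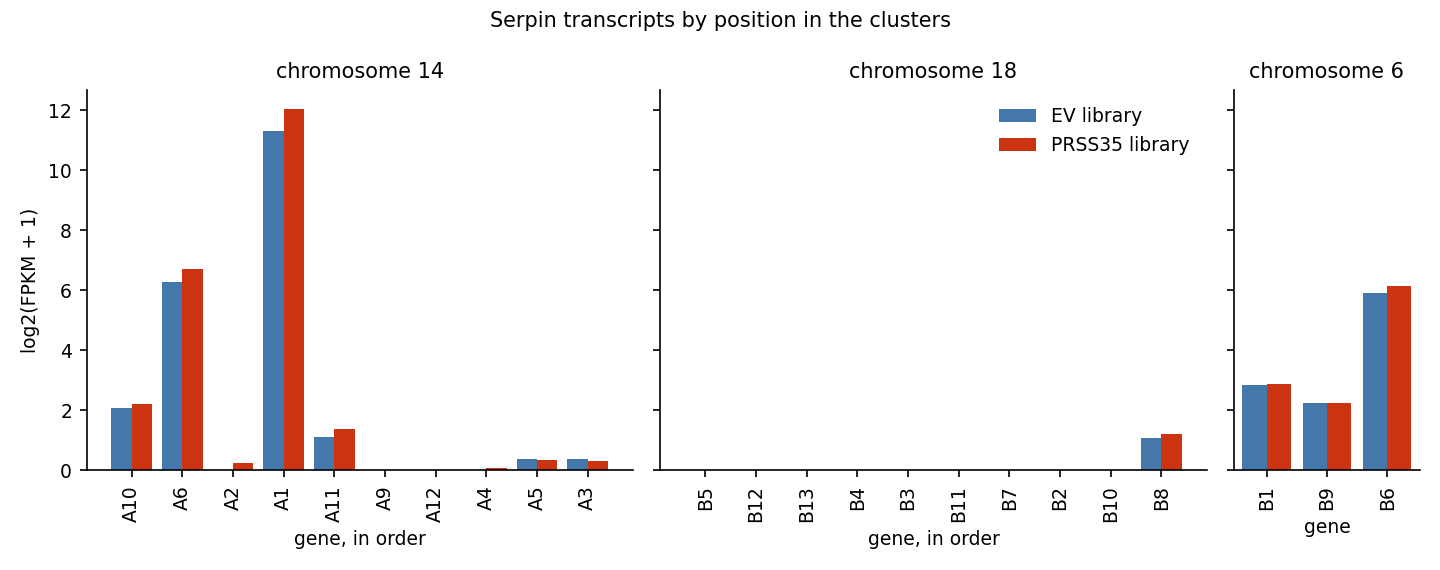
Levels as log2(FPKM + 1) in the EV library (blue) and the PRSS35 library (red), 1 library each, for the serpin genes of the clusters on chromosomes 14, 18 and 6 in their order along the chromosome, named without the prefix SERPIN. On chromosome 18 bars stand only at SERPINB8, while on chromosome 6 all 3 genes have them.

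The proteases that serpins inhibit were mostly below the expression limit in these cells. Of 24 listed targets, 8 were expressed, 4 of them higher in PRSS35 with separate bounds and 0 lower, beside 24.7% and 14.3% of all expressed genes, and 6 were listed at 0 in both libraries, among them plasminogen (PLG), neutrophil elastase (ELANE), cathepsin G (CTSG) and granzyme B (GZMB). Another neutrophil protease, proteinase 3 (PRTN3), was expressed at 6.62 and 6.68 FPKM with overlapping bounds. The 4 with separate bounds were F10 (clotting factor X) at 4.20 and 6.32 FPKM, prothrombin (F2) at 37.8 and 45.5 FPKM, factor XII (F12) at 24.5 and 28.2 FPKM and the lysosomal protease CTSL at 43.8 and 54.0 FPKM. The most abundant target, the proprotein convertase FURIN, was at 238.0 FPKM in EV, in a locus joined to FES, and 233.7 FPKM in PRSS35, with overlapping bounds. These are unlike loci, so the change of FURIN itself cannot be read from them. Urokinase (PLAU), a target of SERPINE2, was at 1.98 and 1.89 FPKM, also overlapping, and tissue plasminogen activator (PLAT) was at 0.110 and 0.150 FPKM.

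Inhibitors of other families were measured beside the serpins. Of 16 genes, 7 were expressed, 3 of them higher with separate bounds and 0 lower, against the same background of 24.7% and 14.3%. The 3 were A2M (α2-macroglobulin) at 171.3 and 195.3 FPKM, the Kunitz inhibitor SPINT2 at 249.3 FPKM in a locus joined to C19orf33 in EV and 300.7 FPKM in PRSS35, and cystatin B (CSTB) at 324.4 and 369.5 FPKM. The values of SPINT2 belong to unlike loci, so its own change cannot be read from them. The background holds only names that match in both libraries. AMBP, the precursor of bikunin, was the most abundant of them, at 2052 and 2032 FPKM with overlapping bounds. Cystatin C (CST3) was at 392.2 and 383.7 FPKM, overlapping as well. The lowest log2 change of the expressed inhibitors was that of SLPI, -0.56, from 2.09 to 1.10 FPKM, and its bounds overlapped too. Kininogen (KNG1), below the expression limit at 0.136 FPKM [0.0220 to 0.251] and 0.493 FPKM [0.2999 to 0.687], had separate bounds.

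Among 4 partners and relatives of the serpins, 3 were expressed. Angiotensinogen (AGT), the precursor of angiotensin, has the serpin fold and the systematic name SERPINA8 but not a name that the rule takes. It was at 474.3 FPKM [457.7 to 490.9] in EV and 665.7 FPKM [643.9 to 687.5] in PRSS35, a log2 change of 0.49 with separate bounds. With the pseudocount of 1 FPKM, only SERPINA1 among the serpins had a larger change. That order depends on the pseudocount, which shrinks the changes of low genes: SERPINI1 reached 0.82 with one of 0.1 FPKM. The receptor LRP1, which clears complexes of serpins with proteases, was at 5.62 and 6.44 FPKM with separate bounds. Vitronectin (VTN), an adhesion protein of plasma, was at 370.3 and 368.1 FPKM with overlapping bounds, and protein Z (PROZ), the partner of SERPINA10, was at 0.105 and 0.0262 FPKM.

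**Figure D3:**
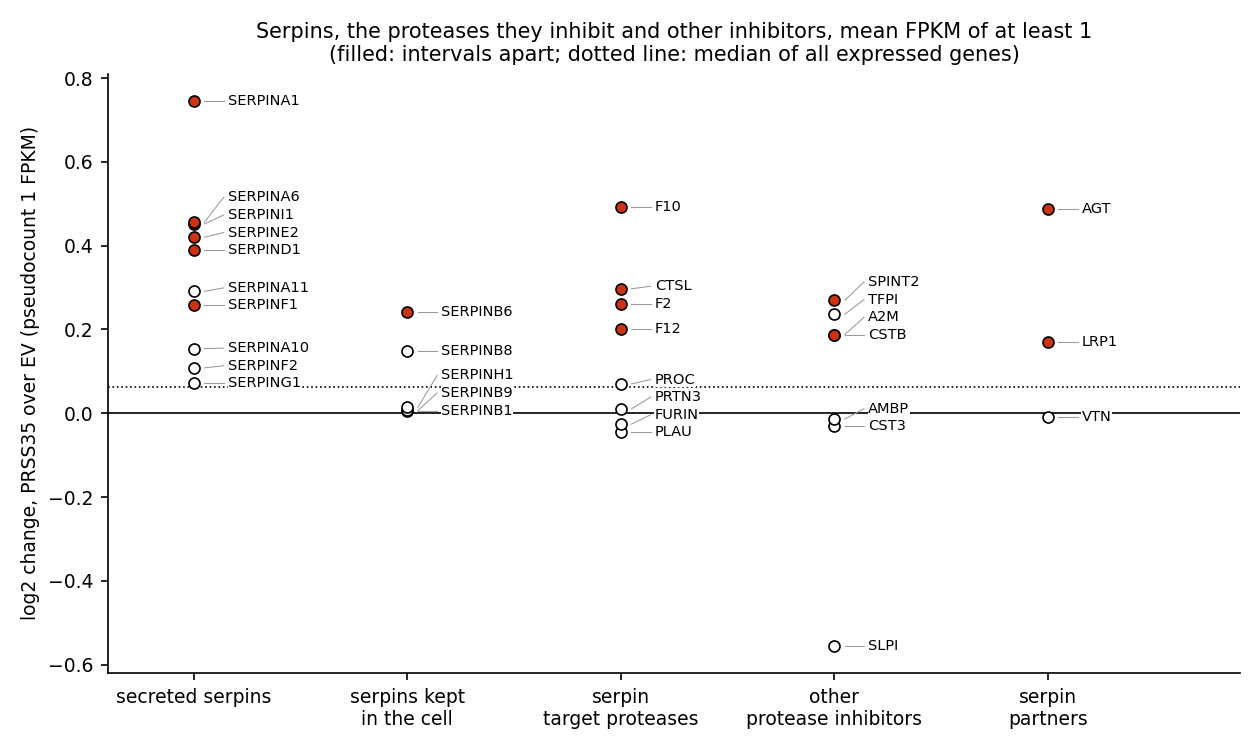
Log2 change (PRSS35 over EV, pseudocount 1 FPKM) of expressed genes in 5 groups, filled where the Cufflinks bounds are apart, with a dotted line at the median of all expressed genes (0.06). SERPINA1 lies at the top at 0.75, SLPI at the bottom at -0.56, and all filled points lie above the dotted line. SPINT2 and FURIN were in joined loci in EV only.

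The study describes PRSS35 as a protease that cuts at paired lysines, so adjacent lysine pairs were counted in the serpin proteins as translated from the GENCODE coding models. Such a pair occurred in 26 of the 33 serpins with a protein model, or 78.8%, and in 11 of the 16 expressed serpins, or 68.8%. Over all 19226 proteins the share was 70.9%, and over the 3137 proteins of the same length range, 374 to 500 residues, it was 72.0%. Per 1000 residues there were 4.39 pairs in all serpins, 3.57 in the expressed serpins, 4.66 in all proteins and 4.28 in those of the same length range. SERPINB1 and SERPINE2 had 4 pairs each, SERPINA1, SERPING1 and SERPINH1 had 3 each, SERPINI1 had 2, and SERPINA10, SERPINA11, SERPIND1 and SERPINF2 had 0. The share of serpins with a pair was thus close to that of all proteins, while the expressed serpins had fewer pairs per 1000 residues. These differences were not tested, and transcript levels hold no measurement of cleavage.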

How the data were processed

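Total RNA of the EV and the PRSS35 cells was sequenced on a HiSeq2500 by the authors, who aligned reads to hg19 with TopHat2 (2.1.0) and estimated transcripts with Cufflinks; the submitters' processing notes name Cuffdiff 2.2.1. The annotation release is not given in the sources used here. The authors deposited 1 table of FPKM per library, scaled by transcript length and mapped fragments, with a lower and an upper bound for each locus, which differ from the FPKM by 2 times its estimated SD. No read counts were used. The only guide to depth is the fragments that the bounds imply (2 × FPKM over the distance to the upper bound, squared). SERPINA5 and SERPINC1 were picked because these were whole within 0.01 in both libraries. Their FPKM per fragment had ratios of 0.999 and 1.00 between libraries. Other low serpins were not whole, such as SERPINA3 with 11.9 in EV and 9.59 in PRSS35. For SERPINB9 the FPKM per fragment was 0.00998 in EV and 0.300 in PRSS35, so implied fragments are no general measure of depth.

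Unplaced contigs and alternate haplotypes were left out, FPKM was summed over rows with the same name, and a member inside a joined locus took the value of that locus. File starts count from 0 and are printed from 1. Changes are log2((PRSS35 + 1)/(EV + 1)) for names with a mean FPKM of at least 1, called at 2-fold, with a second rule of non-overlapping bounds. The steps were tested on simulated data. Alternatives were a threshold of 1.5-fold, pseudocounts of 0.1 or 5, the highest row of each name, no filter on the level or one at 5 FPKM, centring on the median change, division by the upper quartile or by the sum over all loci, loci annotated in both libraries, and joined loci left out. Leaving out SERPINA1, requiring 1 FPKM in each library and scaling the bounds were added after the data had been seen.

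Coding sequences come from GENCODE v44lift37 on GRCh37, the assembly of hg19. The serpin signature was found in 30 of 33 protein models, and the P1 and P1′ residues were the known pair nearest before it, within 25 residues. Protein sequences are not printed here. The genes named are all serpins with a mean of at least 1 FPKM or separate bounds, and, from the lists of target proteases, other inhibitors and partners, the 3 most abundant genes and the expressed ones with separate bounds; other low serpins, markers, targets and partners were named after their values had been seen. Of the expressed serpins, 1 is included in the counts and medians but is not reported here. The members and lists were chosen with earlier results of these data known. Scripts ran in Python 3.11.15 with pandas 2.3.3, matplotlib 3.10.9, numpy 2.4.6 and scipy 1.17.1.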

Additional observations from a re-analysis of the deposited data

How the results depend on the processing

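No paired analysis was possible because only 1 library was sequenced for EV and 1 for PRSS35. When each library was scaled to its summed FPKM, 3 serpins were higher by 2-fold (SERPINA1, SERPINA6 and SERPINE2) and the median of the expressed serpins was 0.82, but the median of all genes was then 0.68 and 10.5% of them were higher, since the sum over all loci in PRSS35 was 0.611 of that in EV. The 1.5-fold threshold gave 1 serpin, SERPINA1. Among the 4 serpins at loci annotated in both libraries, 3 had separate bounds, SERPINA6 and SERPINI1 among them, beside 23.3% of such genes higher and 6.53% lower. SERPINI1 is in that set only through its level in PRSS35. The ratio of the serpin share was 2.58 over all loci and 1.16 without SERPINA1. Under the other alternatives the count at 2-fold stayed at 0 in both directions, and the median ran from 0.01 (no filter, 35 serpins) to 0.44 (annotated loci, 4 serpins). The matching medians over all genes were 0 and 0.08. With no filter, 14 of the 35 serpins were at 0 in both libraries. Bounds were apart for 6 of 10 serpins above 5 FPKM (28.8% of such genes higher, 17.9% lower) and for 7 of 15 without SERPINA1 (24.7% and 14.3%). The bounds hold no variation between cultures, and serpins near 1 FPKM such as SERPINI1 rest on 29.6 and 55.3 implied fragments.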
